A study of Rattus norvegicus with 8 samples.

Results

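The collagen chain genes are the genes that encode the α chains of collagens. They were chosen by name, as every gene on the array whose symbol is Col, a number, the letter a and a number. This gave 39 of 36174 gene names, covered by 54 probes and 129 spots per array. The arrays measured liver RNA of male Wistar rats. Maltodextrin at 3.0 g/kg body weight was given to 4 control rats. Structured lipids that contain butyrate, abbreviated STL, were given by gavage to another 4 at 1.65 g/kg per day, an isocaloric dose. Both groups ate chow and were taken through the resistant hepatocyte protocol of chemical liver carcinogenesis, begun 2 weeks into the treatment, and livers were collected at week 8. All controls therefore carried a liver under carcinogenesis, no untreated liver was part of the comparison, and the agents and ages are not detailed in the sources used here.

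Collagens are built from 3 α chains wound into a triple helix, in which glycine recurs at a spacing of 3 residues because no larger residue can pack into the axis. Fibrillar collagens form the tensile fibres of portal tracts and scars, type IV forms the sheet of basement membranes, type VI forms beaded filaments around cells, and FACIT collagens (fibril-associated collagens with interrupted triple helices) sit on fibril surfaces. In the liver the fibrillar chains are made mainly by stellate cells, portal fibroblasts and the myofibroblasts that arise from them, whereas hepatocytes are known as a source of Col18a1, the type XVIII chain that carries endostatin.

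The repeat is visible in the array itself, and the sequences are shown because they carry the feature that defines these genes. Of the 54 collagen probes, 3 held at least 4 codons of the form GGN, which all encode glycine, at a spacing of exactly 3 codons, against 42 of 45598 probes of the whole array (0.0921%). The glycine codons are in capitals, and positions are those of the files in the rn4 build.
Col14a1 (chr7:92028347-92028406): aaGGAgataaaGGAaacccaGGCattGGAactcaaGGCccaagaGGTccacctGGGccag
Col11a2 (chr20:4936632-4936946): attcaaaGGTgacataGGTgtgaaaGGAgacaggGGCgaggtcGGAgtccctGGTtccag
Col23a1 (chr10:37064934-37067076): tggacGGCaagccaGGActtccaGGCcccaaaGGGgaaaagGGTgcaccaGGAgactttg
The probe of Col14a1, a FACIT chain, held 7 glycine codons, of which 1 pair was spaced by 2 codons instead of 3. The probes of Col11a2, a fibrillar chain, and Col23a1, a transmembrane chain, each held 6 glycine codons with no break in the spacing. Both latter probes span more of the genome (315 and 2143 bases) than their own 60 bases. None of the 3 reading frames held a stop codon. The Col14a1 probe is the one whose values are given below, and the Col11a2 probe shown is not the brightest of its gene.

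The RefSeq table for GRCr8 had a promoter entry for 31 of the 39 genes. Among these were 5 of the 10 chains named below as lower in STL at an unadjusted p under 0.05. Stretches of Col1a2 and Col4a1 were picked from those as examples. The table holds 250 bases before and 50 after each start. The first stretch runs from 250 to 151 bases before the listed start of Col1a2 on the plus strand, and the second is the whole interval of 76 bases between the starts of Col4a1 and Col4a2, read on the strand of Col4a1. These type IV genes are transcribed in opposite directions from a shared interval. Capitals mark matches to the letters of the CCAAT box (CCAAT), the TATA box (TATAAA) and the GC box (GGGCGG), searched on both strands. In Col1a2 the letters ATTGG, from -221 relative to the listed start, were read as CCAAT on the other strand, and TATAAA began at -170. In the type IV interval CCGCCC, from -16 relative to the start of Col4a1, was likewise read as a GC box. Whether these matches act as such boxes was not tested. No match in these stretches overlapped another.
Col1a2 (chr4:33518307-33518406, plus strand): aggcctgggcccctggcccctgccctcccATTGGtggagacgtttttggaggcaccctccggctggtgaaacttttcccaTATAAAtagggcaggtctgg
Col4a1 and Col4a2 (chr16:84885521-84885596, plus strand): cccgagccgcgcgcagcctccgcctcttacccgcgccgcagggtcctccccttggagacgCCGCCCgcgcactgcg
Over all 33469 promoter windows of the same length, the CCAAT box was present in 37.5%, the TATA box in 14.2% and the GC box in 33.1%. Among the 31 collagen genes with an entry they were present in 9, 4 and 17 windows, and among the 5 lower chains with an entry in 2, 1 and 2. In the table of gene positions, Col3a1 lies next to Col5a2 and Col6a1 next to Col6a2.

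The label of the tissue was borne out by its markers. Alb, the hepatocyte albumin gene, had a level between 8.34 and 9.43 on the 8 arrays, in units of log2 relative to the 75th percentile of each array, which is the scale of every level below. On the scanner scale that percentile was 304 to 605, and 54.2% to 62.8% of probes were well above background. Controls 1 and 2 were 1.05 times the noise between spots of a probe apart, against 2.09 to 7.19 times for the other 27 pairs of arrays. They were therefore counted as 1 sample, so that 3 control samples were compared with 4 STL samples. Of the 39 chains, 26 were well above background on at least 4 arrays and were tested.

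Several interstitial collagens had a lower level in the STL livers than in the controls, and none of these differences passed correction for all genes tested. None of the 26 chains passed an adjusted p of 0.05 by limma with Benjamini-Hochberg adjustment, against 1 of all 21879 genes tested (0.00457%). At an unadjusted p under 0.05, 10 chains were lower in STL (Col1a1, Col1a2, Col3a1, Col4a1, Col5a1, Col5a2, Col6a2, Col6a3, Col9a3 and Col14a1), where 7.38% of all genes were. Each of these 10 was lower by at least 0.5 on the log2 scale, as were 4.98% of all genes. Col9a3 was well above background on 4 control arrays and 1 STL array, so it met the filter mainly through the controls. Among the 23 chains well above background on all 8 arrays, 9 were lower, and the share of all genes under that filter was not counted. Only Col11a2 was higher at an unadjusted p under 0.05, where 11.5% of all genes were. The groups did not overlap for 5 chains that were lower in STL, Col1a2, Col3a1, Col6a2, Col6a3 and Col14a1, compared with 5.62% of all genes, and for 0 chains that were higher, compared with 11.2% of all genes. The median difference, STL minus control, was -0.21 over the 26 chains, 17 of them negative, and 0.06 over all genes, of which 9187 were negative and 12692 positive. The median was 0.00 without control 4 and with normexp background correction, and -0.61 without control 3. Without control 4 the number of chains that were lower at an unadjusted p under 0.05 was 5 instead of 10, and it was 6 without STL 5, 6 without STL 8 and 5 with the slide column as a block. The share of all genes that were lower in those 4 fits was 5.37%, 5.49%, 4.74% and 6.95%. Without STL 6 the chains that were lower with no overlap were 9 instead of 5, and 11% of all genes were. In the limma fit with array weights, 5 chains passed the adjusted threshold, as did 1570 of the 21879 genes tested (7.18%).

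**Figure D1:**
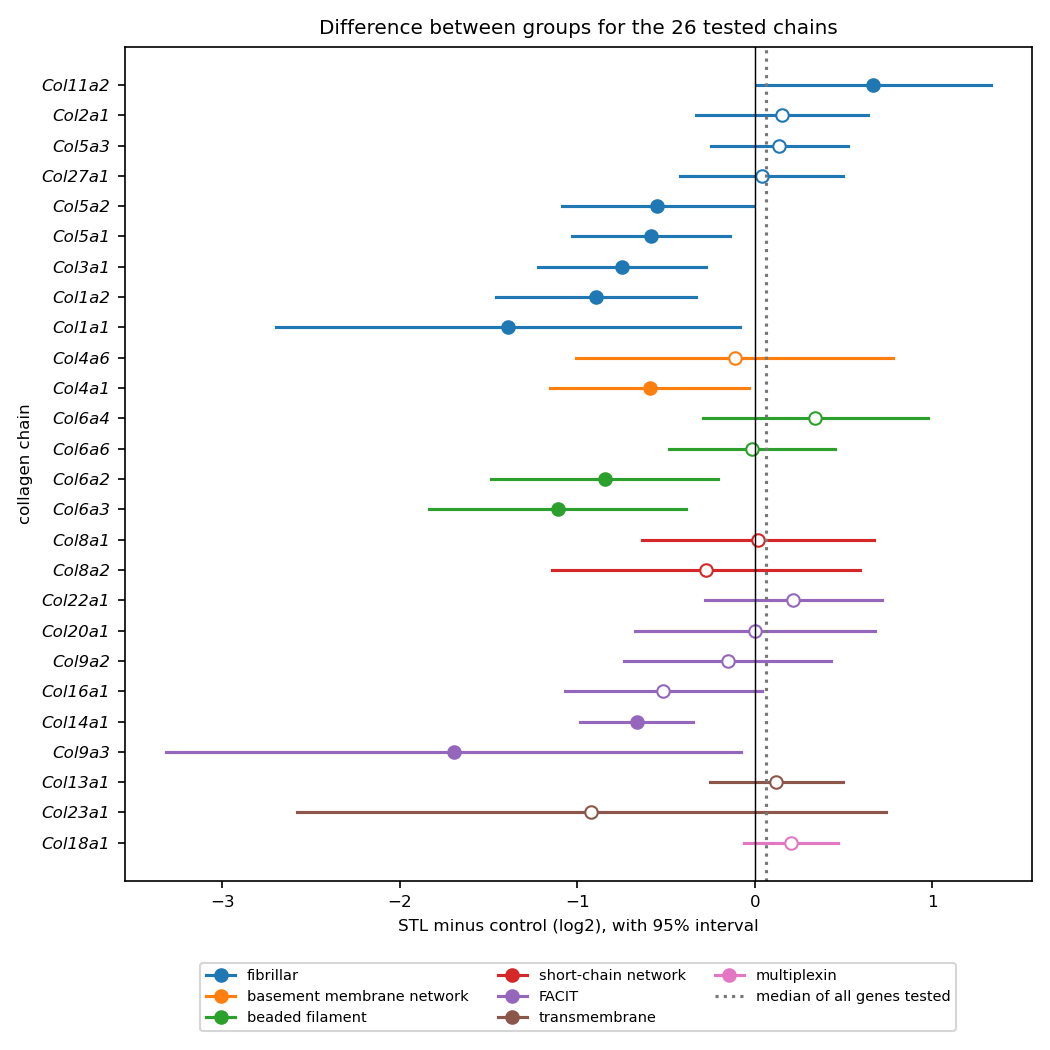
Each point is the difference between groups, STL minus control on the log2 scale, of 1 of the 26 tested collagen chains, with its 95% interval from limma (horizontal axis); chains are grouped by collagen family in colour, and filled points have an unadjusted p under 0.05. The filled points on the left include 5 of the 9 tested fibrillar chains, and the dotted line marks the median of all genes tested, 0.06.

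Type I collagen, the most abundant fibrillar collagen of scar tissue, is assembled from the products of Col1a1 and Col1a2. The level of Col1a2 was 3.99, 3.83, 4.22 and 4.94 in controls 1 to 4 and 3.08, 3.65, 3.69 and 3.44 in STL 5 to 8. Every STL array lay below every control array, with control 4 at the top and STL 5 at the bottom. The group means were 4.36 ± 0.53 (SD, n = 3) and 3.46 ± 0.28 (SD, n = 4), a control level 1.86-fold that of STL (95% interval 1.26 to 2.75; limma adjusted p = 0.179). The level of Col1a1 was 1.62, 1.51, 2.16 and 4.23 in the controls and 0.55, 1.56, 1.77 and 1.18 in the STL livers. Control 4 stood far above the rest and the groups overlapped, since STL 6 and STL 7 exceeded control 2. Col1a1 was 2.62-fold higher in the controls (95% interval 1.06 to 6.48; limma adjusted p = 0.246). Without control 4 its difference was -0.60 instead of -1.39 (limma adjusted p = 0.464), and with controls 1 and 2 left out it was -1.93. The other Col1a1 probe gave -1.64, again with control 4 at the top, at 3.51 against 0.35 to 1.05 in the other controls.

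Type III collagen is a homotrimer of the Col3a1 product and accompanies type I in reticular fibres. The level of Col3a1, the mean of 10 spots, was 4.39, 4.44, 4.72 and 5.20 in the controls and 3.68, 4.32, 4.04 and 4.08 in the STL livers. No STL array reached the lowest control, although STL 6 came within 0.07 of it. The control level was 1.68-fold that of STL (95% interval 1.21 to 2.33; limma adjusted p = 0.179). Type V collagen copolymerises with type I and sets the diameter of its fibrils. Col5a1 averaged 1.92 ± 0.42 (SD, n = 3) in control and 1.34 ± 0.18 (SD, n = 4) in STL livers, a difference of -0.59 (SE 0.20, limma adjusted p = 0.196). STL 6, at 1.60, exceeded controls 1 and 2, at 1.47 and 1.54. The other Col5a1 probe gave -0.44 (limma unadjusted p = 0.0739, adjusted p = 0.312 in a fit of single probes). Col5a2, the neighbour of Col3a1, had levels of -0.11, -0.10, 0.15 and 0.88 in the controls and -0.50, 0.05, -0.21 and -0.31 in the STL livers, so that STL 6 again lay above controls 1 and 2. Its difference was -0.55 (SE 0.24, limma adjusted p = 0.257), and -0.83 on its other probe, also printed as 10 spots. The spread between the spots of the 10-spot probes was 0.03 to 0.12 (SD, log2) within an array, below the spread between livers.

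Col5a3, the chain of type V that is least widely made, had a difference whose interval included 0. Its level lay between -1.79 and -1.36 in the controls and between -1.67 and -1.14 in STL (difference 0.14, 95% interval -0.25 to 0.52, limma adjusted p = 0.672). Among the remaining fibrillar chains, Col2a1, the cartilage collagen, gave 0.15 (95% interval -0.33 to 0.64) and Col27a1 gave 0.04 (95% interval -0.42 to 0.50), which was -0.01 when arrays were scaled to the median. Col11a2, a minor fibrillar chain of cartilage, was higher in STL, with -3.07, -3.67, -3.47 and -4.26 in the controls and -3.10, -2.86, -3.49 and -2.69 in the STL livers. The groups overlapped, since controls 1 and 3 both exceeded STL 7. Control 4, the highest array for most fibrillar chains, was the lowest here. The difference was 0.67 (SE 0.29, limma adjusted p = 0.263), and the probe printed above gave 0.55 (limma adjusted p = 0.426 in a fit of single probes). Of the 11 fibrillar genes, 9 were tested, 5 were lower and 1 was higher at an unadjusted p under 0.05, and the median difference was -0.55.

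**Figure D2:**
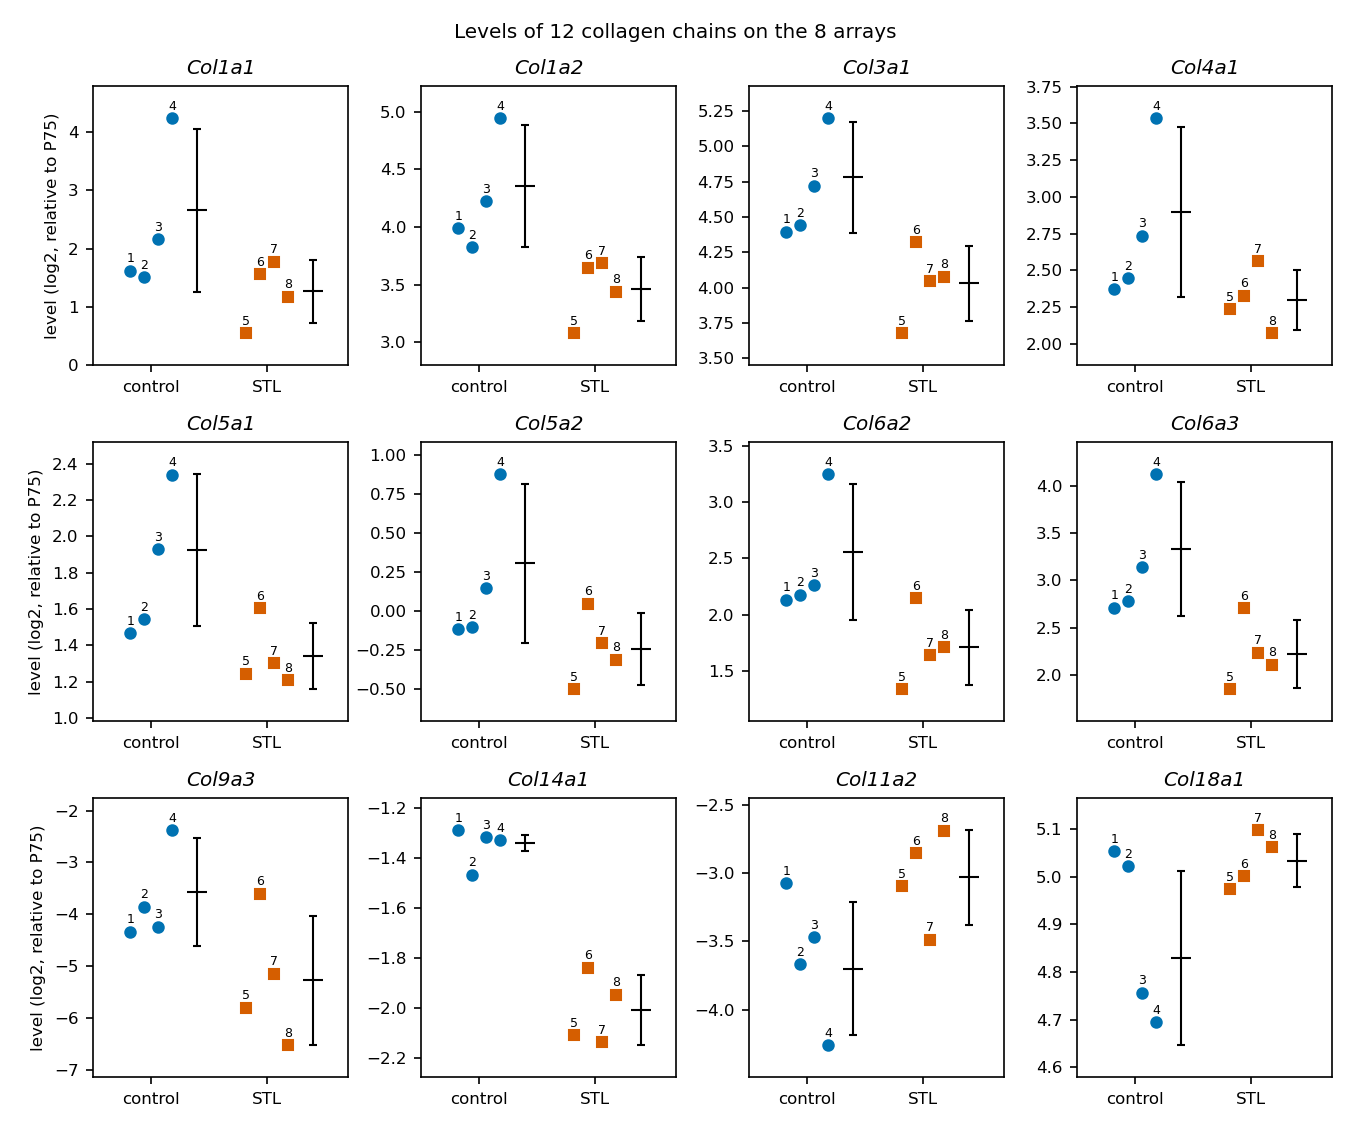
Level of 12 collagen chains on each array (log2 relative to the 75th percentile of the array, vertical axes differ between panels), with circles for controls 1 to 4, squares for STL 5 to 8, and bars for the group mean and SD after control 1 and 2 were averaged. Control 4 is the highest point in 9 of the 10 chains that were lower in STL, and in Col14a1 the controls lie close together, between -1.47 and -1.29.

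Type VI collagen forms beaded filaments from the products of Col6a1, Col6a2 and 1 further chain, most often that of Col6a3. The level of Col6a3 was 2.71, 2.78, 3.14 and 4.12 in the controls and 1.85, 2.70, 2.24 and 2.11 in the STL livers. The groups were separate, by less than 0.01 between STL 6 and control 1. The control level was 2.16-fold that of STL (95% interval 1.31 to 3.57; limma adjusted p = 0.179), and the other probe of the gene gave -1.16 against -1.11. Col6a2 stood at 2.13, 2.18, 2.26 and 3.25 in the controls and at 1.34, 2.15, 1.64 and 1.71 in the STL livers. STL 6 lay above control 1 but below the mean of controls 1 and 2, which counts as their value, so the groups were separate only with that pair averaged. The difference was -0.85 (SE 0.28, limma adjusted p = 0.195). The other Col6a2 probe gave -0.62 (limma unadjusted p = 0.0709, adjusted p = 0.309 in the fit of single probes). On that probe STL 6, at -1.23, lay above the mean of controls 1 and 2, at -1.34, so the groups overlapped. A probe that the files name by transcript and describe as Col6a1 gave -0.56 (limma adjusted p = 0.244 in the fit of single probes). The chains that can take the place of Col6a3 differed from it in direction or size, with 0.34 for Col6a4 (95% interval -0.29 to 0.97) and -0.01 for Col6a6 (95% interval -0.48 to 0.45), the latter 0.00 with quantile normalisation and 0.04 with normexp background correction. Col6a5 was well above background on 1 array and was not tested.

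Type IV collagen is the sheet-forming collagen of basement membranes, which in liver lie around bile ducts and vessels. The level of Col4a1 was 2.37, 2.45, 2.74 and 3.53 in the controls and 2.24, 2.33, 2.56 and 2.07 in the STL livers. Control 4 stood apart from the other controls, and STL 7 exceeded controls 1 and 2. The difference was -0.59 (SE 0.25, limma adjusted p = 0.248), and without control 4 it was -0.27 (limma adjusted p = 0.494). Col4a2, which shares the interval printed above with Col4a1, was represented by a probe described as that gene under a transcript name, with a difference of -0.61 (limma adjusted p = 0.294 in the fit of single probes). A probe described as Col4a5 gave -0.27. The probes of Col4a6 disagreed, at -0.11 for the tested one (95% interval -1.01 to 0.78, and 0.04 with normexp background correction) and 0.80 for one described as Col4a6 (limma adjusted p = 0.188 in the fit of single probes). Col4a3 and Col4a4, chains best known from the kidney glomerulus, were well above background on no array.

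FACIT collagens decorate fibrils and link them to other matrix. Col14a1, which binds type I fibrils and is used to mark fibroblasts, had a level of -1.29, -1.47, -1.32 and -1.33 in the controls and -2.11, -1.84, -2.14 and -1.94 in the STL livers. All 4 STL arrays lay below all 4 control arrays, and control 4 did not stand out. The means were -1.34 ± 0.03 (SD, n = 3) and -2.01 ± 0.14 (SD, n = 4), a control level 1.59-fold that of STL (95% interval 1.27 to 1.98). The control SD was taken after controls 1 and 2, at -1.29 and -1.47, were averaged, and the probe was printed as 1 spot. Col14a1 had the smallest unadjusted p of the tested chains (limma adjusted p = 0.165), and the difference without control 4 was -0.66. Col16a1 averaged -0.07 ± 0.57 (SD, n = 3) in control and -0.59 ± 0.17 (SD, n = 4) in STL livers (difference -0.52, SE 0.24, limma adjusted p = 0.29). Without control 4, at 0.58 the highest array, the difference was -0.19.

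Col9a3, a chain of the cartilage collagen type IX, had the largest difference of the tested chains in the main setting, with a wide interval. Its interval ran from -3.32 to -0.08. Its level was -4.34, -3.85, -4.23 and -2.38 in the controls, all well above background, and -5.80, -3.60, -5.15 and -6.52 in the STL livers, where 1 of 4 arrays was. STL 6 exceeded controls 1 to 3. The difference was -1.70 (SE 0.71, limma adjusted p = 0.25), while a probe described as Col9a3 under a transcript name gave -0.01. With normexp background correction the tested probe gave -0.18. The other tested FACIT chains had intervals that included 0, with -0.15 for Col9a2 (95% interval -0.74 to 0.43), 0.22 for Col22a1 (95% interval -0.28 to 0.72) and -0.00 for Col20a1 (95% interval -0.68 to 0.67, and 0.14 with normexp background correction). A brighter probe described as Col20a1 under a transcript name gave 0.26, and one described as Col22a1 gave -0.03 (limma adjusted p = 0.409 and 0.970 in the fit of single probes). The brightest of the probes described as Col12a1, another FACIT chain of type I fibrils, gave -0.75 (limma adjusted p = 0.258 in the fit of single probes).

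Col18a1, the chain of which hepatocytes are a source, was not lower in STL. It had levels of 5.05, 5.02, 4.76 and 4.69 in the controls and between 4.97 and 5.10 in the STL livers. The 4 STL arrays lay close together, controls 1 and 2 lay among them, and controls 3 and 4 lay below. The difference was 0.20 (SE 0.12, 95% interval -0.06 to 0.47, limma adjusted p = 0.354). Col13a1, a transmembrane collagen, gave 0.12 (95% interval -0.26 to 0.50). The tested probe of Col23a1, printed above, was well above background on 3 control arrays and 1 STL array. It gave -0.92 with an interval from -2.58 to 0.74, and 0.02 without control 4, whose level of -1.89 was the highest. The short-chain collagens Col8a1 and Col8a2, which form networks beneath endothelium, gave 0.02 (95% interval -0.64 to 0.67, and -0.03 when arrays were scaled to the median) and -0.27 (95% interval -1.14 to 0.59, and 0.12 with normexp background correction). Col8a2 was well above background on 3 control arrays and 1 STL array, so it met the filter mainly through the controls.

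Of the 13 chains that were not tested, 6 were well above background on no array (Col4a3, Col4a4, Col10a1, Col19a1, Col24a1 and Col25a1) and 7 on 1 or 2 arrays (Col6a5, Col7a1, Col9a1, Col11a1, Col15a1, Col17a1 and Col26a1). For these no difference was detectable at this signal. Col11a1, which copolymerises with type I and II collagens, reached -2.96 in control 4, its only array well above background, against -7.30 to -5.65 on the other 7. Col15a1, a multiplexin of vessel basement membranes, ranged from -5.44 to -3.67 in the controls and from -6.24 to -4.81 in STL, with 1 array of each group well above background. Col9a1 was not well above background in any control and was so on 1 STL array, with means of -5.49 and -5.01.

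The arrays differed in how they contributed to these differences. Across the 10 chains that were lower at an unadjusted p under 0.05, control 4 was the highest array in 9 and STL 5 the lowest in 6. STL 6 was the highest of the STL arrays in 7, and it was at or above the mean of controls 1 and 2 in 3. The median deviation of these chains from their mean over the 8 arrays was 1.04 on control 4 and 0.34 on control 3. It was 0.02 on each of controls 1 and 2 and -0.02 on STL 6, so these 3 arrays lay together. It was -0.71 on STL 5, -0.30 on STL 7 and -0.39 on STL 8. This pattern was not particular to collagen chains. Over repeated probes of the whole array, STL 6 was 2.09 and 2.12 times the noise between spots from controls 1 and 2. It was 2.66 to 3.71 times that noise from the other STL arrays. Control 4 and STL 5 were the pair furthest apart, at 7.19 times. All arrays were on 1 slide, in 4 columns that each held 1 control and 1 STL array. Within columns, 6 chains were lower in STL in all 4 pairs, namely Col1a2, Col3a1, Col4a1, Col6a2, Col6a3 and Col14a1. The share of all genes that were lower in all 4 pairs was not counted. The pairs of columns 1 and 2 are not independent, since they hold controls 1 and 2, which were counted as 1 sample. For Col6a3 the differences in columns 1 to 4 were -0.86, -0.08, -0.90 and -2.01, and for Col14a1 they were -0.82, -0.37, -0.82 and -0.62. With the column as a block over all 8 arrays, the limma adjusted p was 0.209 for Col6a3 and 0.172 for Col14a1.

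**Figure D3:**
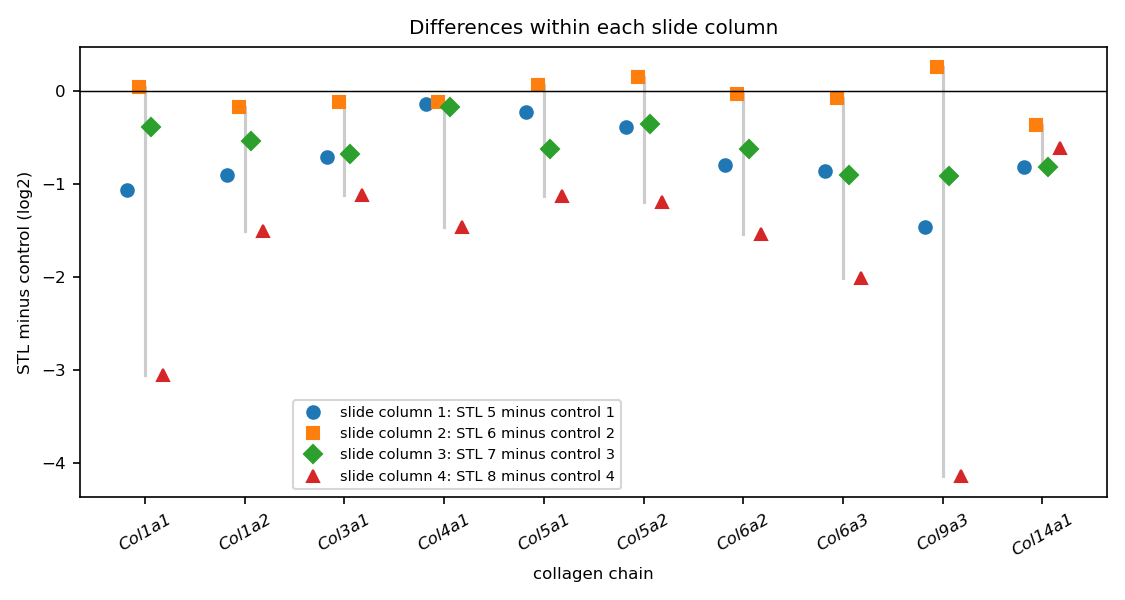
Difference between the STL and the control array of the same slide column (log2, vertical axis) for the 10 chains that were lower in STL at an unadjusted p under 0.05, with 1 symbol per column and a grey line for the range. Column 2 (STL 6 minus control 2) lies nearest to 0 in most chains, and column 4 (STL 8 minus control 4) is the lowest in all but Col14a1, whose 4 values run from -0.82 to -0.37.

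The genes that fold and modify collagen chains were counted next. Of 20 tested genes of this group, 5 were lower and 0 higher in STL at an unadjusted p under 0.05, with a median difference of -0.28, and 0 passed the adjusted threshold. The lower genes numbered 3 without control 4, 3 without STL 5 and 2 without STL 7. In this and the following lists the counts of the main setting stand beside 7.38% lower and 11.5% higher among all genes tested. The share of all genes that were lower was 5.37% without control 4, 5.49% without STL 5 and 4.74% without STL 8. With the slide column as a block it was 6.95%. The lower share in the other fits without 1 array, and the higher share in any of these fits, was not counted. Plod2, the lysyl hydroxylase that modifies the ends of fibrillar chains for crosslinking, had levels of -0.99, -1.02, -0.41 and 0.39 in the controls and -1.91, -1.42, -1.70 and -1.64 in the STL livers, with no overlap. Its difference was -1.32 (SE 0.29, limma adjusted p = 0.165). Pycr1, an enzyme of proline synthesis, gave -1.07 (limma adjusted p = 0.184), P3h3, of the prolyl 3-hydroxylase family, gave -0.52 (limma adjusted p = 0.209), and Fkbp10, a collagen chaperone, gave -0.84 (limma adjusted p = 0.256).

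Of 12 tested enzymes and helpers that trim and crosslink secreted collagen, 2 were lower and 2 higher at an unadjusted p under 0.05, 0 passed the adjusted threshold of limma, and the median was 0.09. Without control 4 there was 1 lower and 1 higher gene. There was also 1 lower gene without STL 5, and 1 higher gene without STL 7, without STL 8 or with the slide column as a block. Loxl4, a lysyl oxidase homologue, had levels of 2.78, 2.78, 2.19 and 2.67 in the controls and 3.50, 3.49, 3.47 and 3.64 in the STL livers. The STL livers were close together and all above the controls, with a difference of 0.98 (SE 0.15, limma adjusted p = 0.112). Loxl2 and Loxl1, of the same family, were lower, at -0.67 (limma adjusted p = 0.179) and -1.39 (limma adjusted p = 0.205). Tll1, a protease that removes procollagen ends, was higher at 0.49 (limma adjusted p = 0.216).

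Among 18 tested genes of collagen breakdown and its inhibitors, 6 were lower and 2 higher, with a median of -0.34. The lower genes numbered 2 without control 4, 3 without STL 8 and 3 with the slide column as a block, and the higher genes 0 without control 3 and 1 without control 4. Mmp2, a gelatinase made by stellate cells, gave -0.95 (SE 0.29, limma adjusted p = 0.179), and Mmp12, the macrophage elastase, gave -2.94 (SE 0.89, limma adjusted p = 0.182), with levels from -1.55 to 0.72 in the controls and from -4.58 to -0.80 in STL. Reck, a membrane inhibitor of metalloproteinases, gave -0.64 (limma adjusted p = 0.195), and Pepd, the dipeptidase that recycles proline from collagen fragments, was higher at 0.28 (limma adjusted p = 0.205). Of 10 receptor genes listed, 5 were tested, with 2 lower, 1 higher and a median of 0.08. The lower genes numbered 0 without control 4 and 1 without STL 5 or STL 8, the higher genes 2 without STL 6, and the median was -0.05 without control 3. Ddr2, the receptor kinase for fibrillar collagen, gave -0.86 (limma adjusted p = 0.195), and Itgb1, the shared β1 chain of collagen-binding integrins, gave -0.32 (limma adjusted p = 0.216). Mag, a glycoprotein best known from myelin that stood in the list, gave 0.62 (limma adjusted p = 0.174).

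Genes of the matrix around the fibrils had the most lower members of the lists that act on collagen. Of 24 tested genes, 12 were lower and 0 higher at an unadjusted p under 0.05, and the median difference was -0.64. The groups did not overlap for 7 genes, all lower in STL, compared with 5.62% of all genes. Without control 4 the lower genes numbered 6 and the median was -0.37, and without STL 7 or STL 8 the lower genes numbered 7. Fbln1, a fibulin of elastic fibres and basement membranes, gave -1.25 (SE 0.32, limma adjusted p = 0.172). Mfap4, a microfibril protein, gave -1.53 (limma adjusted p = 0.172), Sparc, a collagen-binding matrix protein, gave -0.67 (limma adjusted p = 0.179) and Prelp, a leucine-rich proteoglycan, gave -0.43 (limma adjusted p = 0.179). Of 16 tested genes of the TGF-beta pathway and other profibrotic ligands, 5 were lower and 0 higher, with a median of -0.34. Bambi, a decoy receptor of the pathway, gave -0.65 (limma adjusted p = 0.168). Tgfb3 gave -1.25 (limma adjusted p = 0.182), and the latent binding proteins Ltbp2 and Ltbp1 gave -1.71 (limma adjusted p = 0.178) and -1.17 (limma adjusted p = 0.209).

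**Figure D4:**
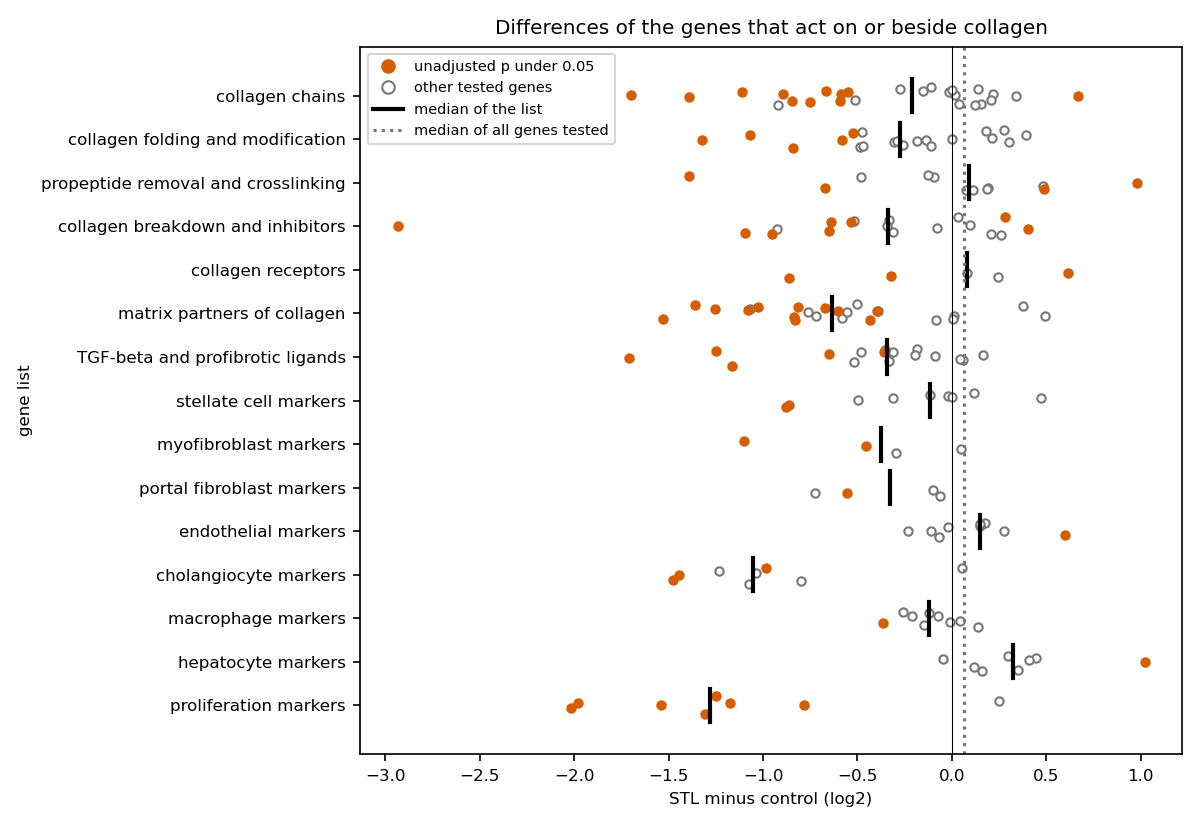
Difference between groups (STL minus control, log2, horizontal axis) of each tested gene of the collagen chains and of 14 further lists (vertical axis), with filled points for an unadjusted limma p under 0.05 and a black bar for the median of the list. Matrix partners of collagen have a median of -0.64, cholangiocyte markers of -1.06 and proliferation markers of -1.28, against 0.06 for all genes tested (dotted line).

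In whole liver, fewer cells of a type and less RNA per cell cannot be told apart, and some markers of other cell types were lower beside the collagen chains. Of 9 tested stellate cell markers, 2 were lower and 0 higher (median -0.11). The lower markers numbered 1 without any 1 of controls 2, 3 and 4 and STL 5, 7 and 8 and with the slide column as a block, and the higher ones 1 without control 2 or control 3. The median was -0.07 without control 2 or STL 8, -0.21 without control 3 and -0.26 without STL 5. Vim gave -0.88 (limma adjusted p = 0.179) and Cygb -0.86 (limma adjusted p = 0.257), whereas Lrat, which stores retinoid, gave 0.00, Des -0.31 and Pdgfrb -0.50 (limma adjusted p = 0.999, 0.353 and 0.31). Lhx2 was higher, at 0.47 (limma adjusted p = 0.272), as was Reln, at 0.12 (limma adjusted p = 0.545), and the other 7 differences were negative. The groups did not overlap for Vim, which was lower, and for Lhx2. The summed level of the list ran from 3.84 to 4.59 in the controls and from 3.70 to 4.09 in STL, and 2 of its 11 markers, Gfap and Ngfr, were well above background on no array. Of 4 tested myofibroblast markers, 2 were lower, Tagln at -1.10 (limma adjusted p = 0.208) and Myl9 at -0.45 (limma adjusted p = 0.235), while Acta2, the defining smooth muscle actin, gave 0.05 (limma adjusted p = 0.877). The lower markers numbered 0 without control 3, control 4, STL 7 or STL 8 and with the slide column as a block, and 1 without STL 5. Their summed level was 1.09 to 1.80 in the controls and 0.95 to 1.35 in STL, with Cnn1 well above background on no array. Of 4 tested portal fibroblast markers, 1 was lower, Entpd2 at -0.56 (limma adjusted p = 0.184), with summed levels of 0.41 to 1.13 and -0.05 to 0.54 and Cd34 above background on no array. The median of that list was -0.33, and -0.08 without control 4.

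The medians of the cholangiocyte and proliferation markers were further below 0 than that of the collagen chains, and the difference between lists was not tested. Of 8 cholangiocyte markers, 3 were lower and 0 higher, with a median of -1.06, among them Krt19 at -1.48 (limma adjusted p = 0.179), Muc1 at -1.44 (limma adjusted p = 0.179) and Epcam at -0.98 (limma adjusted p = 0.259). Sox9 gave 0.06 (limma adjusted p = 0.898), and the other 7 differences were negative. Without control 4 the median of the list was -0.53. Their summed level was 3.62 in control 4, 2.41 to 2.51 in the other controls and 1.30 to 2.63 in STL. Of 8 proliferation markers, 7 were lower, with a median of -1.28, Top2a at -2.02 (limma adjusted p = 0.174), Ccna2 at -1.98 (limma adjusted p = 0.179), Bub1 at -1.17 (limma adjusted p = 0.197), Cdk1 at -1.54 (limma adjusted p = 0.204) and Mki67 at -1.25 (limma adjusted p = 0.235). Aurka, the only one with a positive difference, gave 0.25 (limma adjusted p = 0.391). The lower markers numbered 2 without control 3 or control 4, and 4 without STL 5, without STL 7 or with the slide column as a block. Their summed level was 3.82 and 3.74 in controls 3 and 4, against 2.41 to 2.67 on the other 6 arrays. Of 9 macrophage markers, 1 was lower (0 without control 3 and 2 without STL 5), C1qc at -0.37 (limma adjusted p = 0.191), while Cd68 gave -0.12, with summed levels of 6.96 to 7.25 in the controls and 6.78 to 7.26 in STL.

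The medians of the endothelial and hepatocyte markers were above 0 in the main setting. Of 9 endothelial markers, 1 was higher (0 without control 4, STL 5 or STL 7 and 2 without control 1), Kdr at 0.60 (limma adjusted p = 0.208), and Pecam1 gave 0.17 and Stab2 -0.23, with summed levels of 6.08 to 6.56 in the controls and 6.52 to 6.93 in STL. Of 8 hepatocyte markers, 1 was higher (0 without control 3, without control 4 or with the slide column as a block), Tat at 1.02 (limma adjusted p = 0.203), and Alb gave 0.41 (limma adjusted p = 0.301), with summed levels of 11.02 to 11.49 and 11.44 to 12.00. The medians of both lists, 0.15 and 0.32, were 0.05 and 0.18 without control 4 and 0.04 and 0.21 without STL 7, and were below 0 under other settings (-0.02 with the mean of all probes for the endothelial list, -0.04 with quantile normalisation for the hepatocyte list). The part of these cell types in the collagen differences was not tested.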

How the data were processed

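Liver RNA of 4 control and 4 STL rats was hybridised to 1-colour Agilent arrays (Cy3). The authors deposited scanner files of spot intensity, made with Feature Extraction 11.5.1.1 per the file headers and 10.7 per the submitters' processing notes, with positions in rn4 per the file headers. They also deposited a series table of intensity on a linear, uncentred scale (column medians 57.7 to 65.3), in which 6 of 8 columns matched a different array of their own group and 0 an array of the other group. Of 62976 spots per array, 58717 were non-control, on 45598 probes. Spots with outlier flags were removed (32 probes missing on some array), no spot was saturated, and spots of a probe were averaged. Each value is the log2 processed signal less the array's own 75th percentile over non-control probes. A probe was taken as well above background where at least 0.5 of its spots were so marked. The brightest probe stood for its gene, and the 21879 genes that met this mark on 4 or more of the 8 arrays were tested.

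Groups were compared with limma 3.58.1 (R 4.3.3; lmFit, eBayes with an intensity trend, two-sided, Benjamini-Hochberg over all genes tested, threshold 0.05), checked on simulated data. Control 1 and 2 were averaged because they differed by about spot noise, and whether they were 1 RNA or 2 livers is not stated. The number of arrays limits precision. Levels of different probes were not compared. Tables were handled in Python 3.11.15 with pandas 2.3.3, and figures made in matplotlib 3.10.9.

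The members and gene lists were chosen with earlier results of these data known. Named were the tested chains (full values for types I, III, IV, V, VI, XIV, XV and XVIII and for others with small unadjusted p), up to 4 genes of each list with the smallest unadjusted p, and defining cell markers. Probes described as collagens under transcript names were added after their values were seen. The alternatives tried, 21 in all, covered scaling, background, filter, probe choice, samples, block, weights, series table and leaving out each array.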

Additional observations from a re-analysis of the deposited data

Results flagged for a closer look

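The 4 STL arrays were examined for 64 named genes, and the controls, counted as 3 samples, were not. For 3 genes 1 STL array stood apart by more than Dixon's 95% critical value for 4 samples, measured as the gap to its neighbour divided by the range of the group. Chance flags about 1 in 20 groups. Tgfb3, a TGF-beta ligand, had its highest STL level, -2.15, on STL 6 (gap over range 0.843). Ddr2, the receptor kinase for fibrillar collagen, had its highest STL level, -3.86, on STL 6 (0.899). Fbln1, a fibulin, had its lowest STL level, -3.86, on STL 8 (0.881). None of the 3 is a collagen chain.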

How the results depend on the processing

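Of the tested chains, 18 kept the sign of their difference under every one of the 21 alternatives that gave them a value (20 for the 3 dimmest chains), and 8 did not; in each case below the cause was not tested. With normexp background correction Col4a6 was 0.044, Col6a6 0.043, Col8a2 0.12 and Col20a1 0.14. With array weights Col4a6 was 0.59, Col8a1 -0.13, Col8a2 0.13, Col9a2 0.16 and Col20a1 0.35. With controls 1 and 2 left out Col4a6 was 0.12, Col6a6 0.063, Col8a1 -0.077 and Col27a1 -0.031. With median scaling Col8a1 was -0.026 and Col27a1 -0.0060, with quantile normalisation Col6a6 was 0.00217, and with the mean of all probes Col6a6 was 0.22 and Col27a1 -0.071. Col20a1 was 0.051 with 8 arrays as samples and with the slide column as a block, and 0.050 with the series table. Leaving out 1 array gave -0.63 to 0.17 for Col4a6, -0.24 to 0.14 for Col6a6, -0.24 to 0.15 for Col8a1, -0.65 to 0.16 for Col8a2, -0.41 to 0.089 for Col9a2, -0.23 to 0.34 for Col20a1, -1.30 to 0.018 for Col23a1 and -0.091 to 0.18 for Col27a1.

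The number of chains that were higher in STL at an unadjusted p under 0.05, 1, was 0 with median scaling, no filter, the mean of all probes, 8 arrays as samples, the block and the series table, and 2 with normexp, array weights and controls 1 and 2 left out. Those with groups that did not overlap on the higher side, 0, were 2 with normexp, 1 in the fit of single probes and 2 with controls 1 and 2 left out, which also gave 10 on the lower side. The shares of all genes without overlap, and of all genes that were higher, were not counted in any of these settings. In the main setting 11.5% of all genes were higher at an unadjusted p under 0.05. Groups overlap less readily with fewer control samples, so the count of 10 cannot be set against that of the main setting. Lower chains were 5 with the block, and 5 chains passed the adjusted threshold with array weights, where 7.18% of all genes tested did. Leaving out 1 array gave 5 to 10 lower and 0 to 1 higher chains, 4 to 9 and 0 to 2 whose groups did not overlap, and a median log2 difference of collagen chains of -0.61 to 0.00016. The share of all genes in the fits without 1 array was counted only where it is given above. List medians moved to -0.17 (folding, normexp), 0.19 and -0.082 (receptors, normexp and single probes), -0.14 and -0.20 (TGF-beta, normexp and array weights), -0.32 (stellate, array weights), -0.036 (hepatocyte, quantile) and -2.07 (proliferation, controls 1 and 2 left out). The endothelial median was 0.031 with quantile normalisation, -0.021 with the mean of all probes and in the fit of single probes, and 0.0019 with array weights. Leaving out 1 array gave -0.29 to -0.18 for folding, -0.049 to 0.17 for receptors and 0.042 to 0.19 for endothelial markers. The median of all genes was 0.06 in the main setting, 0.02 with median scaling and quantile normalisation and 0.11 with normexp. The signal limits what can be said of the 13 chains that were not tested. No paired analysis by replicate number was possible because the labels number the controls 1 to 4 and the STL rats 5 to 8, and the only pairing tried was by slide column.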
